A study of Mus musculus with 6 samples.

Results

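The 10 genes described here encode proteins stored in the granules of neutrophils. Mpo, Elane and Prtn3 encode enzymes of the primary (azurophil) granule. Ltf, Camp, Ngp, Lcn2, Chil3 and Mmp8 were taken as secondary (specific) granule genes, and Mmp9 as the tertiary (gelatinase) granule gene. They were chosen by symbol from textbook granule proteins, with the difference between libraries sorted for low and for high lipid dye already known, so that difference is given for them as a description, without a p-value. All 10 have a row among the 16179 genes of the table. The libraries were made from microglia of the hippocampus of 10-month-old male mice without progranulin (strain B6.129S4(FVB)-Grntm1.1Far/Mmja), with 2 mice pooled per library, and no mouse with progranulin is part of the comparison. For each library about 10000 live CD11b-positive, CD45-low cells were sorted by BODIPY, a dye for neutral lipid, into a BODIPY-low group (libraries low 1, low 2 and low 3) and a BODIPY-high group (high 1, high 2 and high 3). The number in a library's name is its replicate number. Whether a low library shares its pool with a high library is not in the labels, nor that pools of a group came from separate preparations, so the spread between libraries may be in part technical.

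Neutrophils fill their granules in waves as they mature in the bone marrow. Primary granule enzymes are transcribed in early precursors, secondary granule proteins in the following stages, and gelatinase last, while neutrophils in blood carry most of the proteins and few of the early transcripts. Elastase and proteinase 3, the products of Elane and Prtn3, are known to cut progranulin into granulin peptides, and the inhibitor encoded by Slpi protects it. Microglia are not known as a main source of these proteins, although Lcn2, Chil3 and Mmp9 are also made by other cells, among them activated glia and macrophages.

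The stretches before the start sites are shown to set letters of factor sites beside the granule classes. RefSeq windows of GRCm38.p6, running from 250 bases before to 50 after the gene start, were matched for 9 of the 10 genes, all but Mmp9. The letters GAGGAAGT, a site preferred by PU.1, were found on either strand in the windows of Mpo, Elane, Prtn3 and Mmp8, which is 3 of 3 primary genes and 1 of 6 secondary genes, and in 3.20% of all 32851 windows. The letters TTNNGCAA, a form of the C/EBP site, were found on either strand in Ltf, Ngp, Lcn2 and Mmp8, which is 4 of 6 secondary and 0 of 3 primary genes, and in 10.8% of all windows. The full palindrome TTGCGCAA, which is also a case of the wider form, was in 0 of the 9 windows and 0.183% of all, and TGTGGT, a RUNX site, in 1 of the 9 (Ltf) and 16.8% of all. A match describes letters only. Stretches without exon bases of the gene are printed 5′ to 3′ on the strand of the gene, with matches to GAGGAAGT and TTNNGCAA, or their reverse complements, in capitals.

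Mpo, chr11:87793534-87793580, plus strand: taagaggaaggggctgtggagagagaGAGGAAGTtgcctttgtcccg

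Elane, chr10:79886097-79886246, plus strand: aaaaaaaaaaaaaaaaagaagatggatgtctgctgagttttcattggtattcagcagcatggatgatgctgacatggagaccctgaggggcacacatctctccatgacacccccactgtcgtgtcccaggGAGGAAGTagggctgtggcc

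Prtn3, chr10:79879464-79879613, plus strand: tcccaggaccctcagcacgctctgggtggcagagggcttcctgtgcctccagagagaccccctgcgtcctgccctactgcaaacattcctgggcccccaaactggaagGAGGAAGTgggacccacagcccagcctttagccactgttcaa

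Ltf, chr9:111019121-111019270, plus strand: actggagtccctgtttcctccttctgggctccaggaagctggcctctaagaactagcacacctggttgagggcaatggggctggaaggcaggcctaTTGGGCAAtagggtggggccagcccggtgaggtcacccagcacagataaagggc

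Ngp, chr9:110419597-110419746, plus strand: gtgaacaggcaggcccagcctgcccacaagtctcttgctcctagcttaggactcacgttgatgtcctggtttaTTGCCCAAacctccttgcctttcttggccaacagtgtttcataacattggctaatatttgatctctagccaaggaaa

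Mmp8, chr9:7558208-7558417, plus strand: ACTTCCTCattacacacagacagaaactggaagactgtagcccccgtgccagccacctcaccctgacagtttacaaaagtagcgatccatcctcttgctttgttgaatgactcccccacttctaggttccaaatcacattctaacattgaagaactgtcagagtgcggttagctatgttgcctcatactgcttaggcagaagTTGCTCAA

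In Mpo, Elane and Prtn3 the match began 224, 85 and 95 bases before the RefSeq start. In Ltf it began 75 bases before it, in Ngp 138, and in Lcn2, whose stretch is not shown, 216. A further match in Ngp began 11 bases before the start and lies outside the printed stretch, and the RUNX letters of Ltf lie after the start. RefSeq and GENCODE starts differ for each gene shown, so these distances do not run from the GENCODE gene coordinates given below. The stretch of Prtn3 lies within the longer GENCODE span of that gene, and the further match in Ngp lies within the GENCODE span of Ngp. Mmp8 held one of each kind, the PU.1 letters 221 and the C/EBP letters 19 bases before the start.

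Each library held between 24982215 and 34899425 recovered reads. Grn, the gene targeted in these mice, had 416, 625 and 990.1 normalised reads in low 1, low 2 and low 3 and 468, 657 and 1614 in high 1, high 2 and high 3, so the groups overlapped (log2 fold change 0.31, SE 0.41, limma adjusted p = 0.675). Reads along the gene were not analysed here, so these counts do not check the deletion. Libraries low 1 and high 2 stood apart from the other libraries of their groups in secondary granule reads. All 10 tested microglia markers, among them P2ry12, Tmem119 and Sall1, were present in every library, with summed levels of 1508560 to 1763200 normalised reads in the low libraries and 1370460 to 1514450 in high libraries. Cx3cr1 alone of them was called (log2 fold change -0.39, limma adjusted p = 0.0399), a call that stood in 1 of 6 single-library omissions, that of high 1 (adjusted p 0.0609 to 0.158 otherwise). The number of microglia markers called lower was 4 with the replicate block, 2 with edgeR, DESeq2 or equal totals and 0 with no filter, and without low 1 there were 2 called higher and 0 lower. The 8 choroid plexus markers, epithelial genes of another brain tissue, summed to 3735 to 18552 normalised reads in low and 150651 to 263676 in high libraries, and all 8 rose (Enpp2, Ttr, Folr1 and Clic6 by 4.64 to 4.82 on the log2 scale). Their part in the granule values was not tested. In sorted bulk RNA, fewer cells of a type and less RNA per cell cannot be told apart.

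Transcripts of 5 of the 6 secondary granule genes, all but Mmp8, were abundant in every low library and much lower in every high library. Ngp, which encodes neutrophilic granule protein, a relative of the cathelicidins and cystatins (GRCm38 chromosome 9, 110419747 to 110423012), had 31572, 11774 and 12478 normalised reads in low 1, low 2 and low 3 and 157, 758 and 69.9 in high 1, high 2 and high 3. The groups did not overlap, and the lowest low library was 15.5 times the highest high library. Ltf, which encodes the iron-binding lactoferrin (chromosome 9, 111019271 to 111042767), had 19015, 7986 and 6569 in the low libraries and 84.8, 485 and 44.5 in high 1, high 2 and high 3. As with Ngp, low 1 was the highest of the low and high 2 of the high libraries. Chil3, a chitinase-like protein also called Ym1 (chromosome 3, 106147554 to 106167564), had 11172, 4969.7 and 6087 in the low libraries and 68.8, 426 and 19.9 in high 1, high 2 and high 3. Reads of Chil3 can be shared with near-identical chitinase-like copies, so its level is uncertain.

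Lcn2, which encodes lipocalin-2, a binder of bacterial siderophores (chromosome 2, 32384633 to 32388252), had 4480.0, 2312 and 2340.2 normalised reads in the low libraries and 38.6, 119 and 15.1 in high 1, high 2 and high 3. Camp, the cathelicidin precursor of an antimicrobial peptide (chromosome 9, 109847379 to 109849617), had 4737, 1438 and 1481 in the low libraries and 36.7, 166 and 6.36 in high 1, high 2 and high 3. Neither gene overlapped between groups. In these 5 genes low 1 held between 1.93 times (Lcn2) and 3.25 times (Camp) the mean of the other low libraries. Library high 2 held between 4.43 times (Lcn2) and 9.61 times (Chil3) the mean of the other high libraries, and high 3 was the lowest of the high libraries for all 5.

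**Figure D1:**
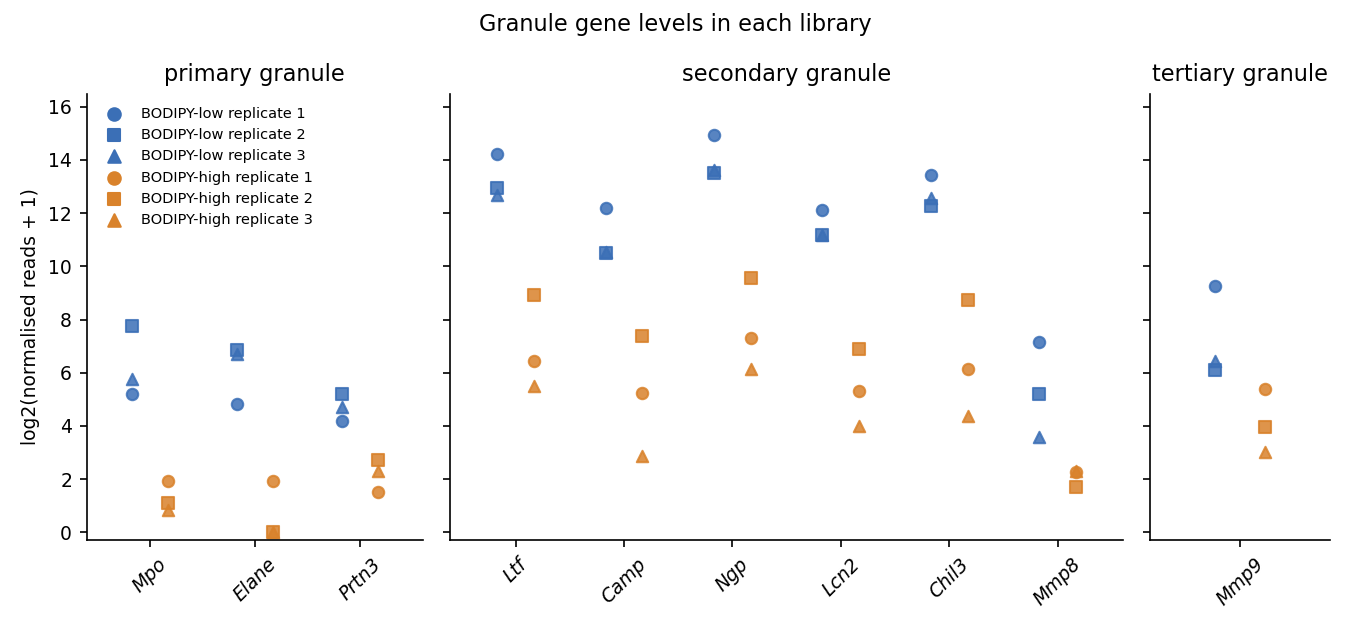
Level of each granule gene in each library, as log2(normalised reads + 1), by granule class, with low libraries in blue and high libraries in orange and 1 symbol per replicate number. All 10 genes have every blue point above every orange point, and the blue circle (low 1) is highest for the secondary and tertiary genes but lowest for the primary genes.

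Primary granule transcripts were much scarcer than those of these 5 genes and had another order of libraries. Mpo, which encodes myeloperoxidase (chromosome 11, 87793581 to 87804413), had 35.4, 214 and 53.8 normalised reads in low 1, low 2 and low 3 and 2.83, 1.13 and 0.795 in high 1, high 2 and high 3. Elane, the neutrophil elastase (chromosome 10, 79886247 to 79888215), had 27.4, 115 and 102 in the low libraries and 2.83, 0 and 0 in the high libraries. Prtn3, proteinase 3 (chromosome 10, 79874476 to 79883174), had 17.2, 36.2 and 25.1 in the low libraries and 1.88, 5.66 and 3.97 in high 1, high 2 and high 3. Library low 1, highest for every secondary gene, was the lowest low library for all 3 primary enzymes.

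The BODIPY-high values of the primary genes rest on a handful of reads. Over that group Mpo had 5 reads, Elane 3 and Prtn3 12, against 290, 242 and 76 in low libraries. Pooled reads, scaled by library, were 64.3 times higher in low libraries for Mpo (exact 95% interval 27.2 to 199), 89.4 times for Elane (30.2 to 436) and 7.02 times for Prtn3 (3.79 to 14.2). The intervals of Mpo and Prtn3 do not overlap, but reads were pooled over libraries, so no difference between these genes is read from that. Like all intervals here they hold for counting error alone and leave out the spread between libraries. Copies made by PCR were not told apart by molecular tags, so the intervals may be too narrow even for counting error. Exons of Prtn3 overlap those of Plppr3 and exons of Mpo those of Gm11505, and how reads there were assigned is not given in the sources used here.

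The collagen-cleaving metalloproteinases formed another pattern. Mmp9, gelatinase B (chromosome 2, 164940780 to 164955850), had 613, 67.1 and 85.4 normalised reads in low 1, low 2 and low 3 and 40.5, 14.7 and 7.15 in high 1, high 2 and high 3. Mmp8, neutrophil collagenase (chromosome 9, 7558456 to 7568485), had 142, 36.2 and 11.1 in the low libraries and 3.77, 2.27 and 3.97 in high 1, high 2 and high 3. Library low 1 held 8.04 times the mean of the other low libraries for Mmp9 and 5.99 times for Mmp8, more than for any of the 5 abundant secondary genes. Library high 2, highest for those 5, held 0.618 and 0.585 times the mean of the other high libraries for Mmp9 and Mmp8. For Mmp8 this rests on 2 reads in high 2 against 4 and 5 in high 1 and high 3. For Mmp9 high 2 lay between high 3 and high 1. The lowest low library exceeded the highest high library by 1.66 times for Mmp9 and 2.80 times for Mmp8.

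As a description, the log2 fold changes (high minus low libraries) ran from -6.35 to -2.51, with a median of -5.70 against -0.01 over all 12821 tested genes. They were -6.35 for Ngp (SE 0.68), -6.35 for Chil3 (0.80), -6.34 for Ltf (0.69), -6.09 for Lcn2 (0.56) and -5.91 for Camp (0.88). The primary genes Elane, Mpo and Prtn3 stood at -5.48 (SE 0.87), -4.95 (0.78) and -2.51 (0.71), and Mmp8 and Mmp9 at -3.23 (0.88) and -3.14 (0.81). By class the medians were -4.95 for the primary and -6.21 for the secondary genes. Single libraries moved these values. Without high 2 the 5 abundant secondary genes lay between -7.51 (Chil3) and -6.84 (Lcn2), with Ngp at -7.30, and without high 3 between -5.61 (Ltf) and -4.77 (Camp). Without low 1 Mmp9 and Mmp8 stood at -2.14 and -2.32, and Elane at -6.13. Without low 3 Mmp8 stood at -4.10, without high 1 Mmp9 at -3.76, and without low 2 Mpo at -4.19. The pseudocount of 1 read shrinks the values of the primary genes and Mmp8 most, because their BODIPY-high levels are near 0. All 10 genes passed the filter on low values and were called lower by limma, where 3.52% of tested genes were called lower and 9.79% higher. edgeR and DESeq2 also called all 10 lower, with 3.33% and 5.23% of tested genes called lower. The groups did not overlap in any of the 10, as in 13.4% of tested genes that were lower in every high library. Since these genes were chosen with the contrast in view, nothing is read from those counts. With 1 library left out, the calls of Mpo, Elane, Ltf, Camp, Ngp, Lcn2 and Chil3 stood in every case. Of these omissions Prtn3 was called only in that of high 2 and Mmp8 only in that of low 3, and Mmp9 was not called without low 1 or high 2 or 3.

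Together the 10 genes made up 0.251%, 0.105% and 0.106% of all reads in low 1, low 2 and low 3, and 0.00154%, 0.00699% and 0.000619% in high 1, high 2 and high 3. The exact Clopper-Pearson 95% interval was 0.249 to 0.253% for the highest and 0.000539 to 0.000707% for the lowest of these. The group means were 0.154% ± 0.0842 and 0.00305% ± 0.00344 (SD, n = 3 each), a ratio of 50.5. Without high 2 the BODIPY-high mean was 0.00108%, and without low 1 the BODIPY-low mean was 0.105%. That ratio was 143 without high 2. By class it was 51.6 for secondary, 33.4 for primary and 12.3 for tertiary granule reads, and single libraries set these sizes and their order. Without low 1 the ratios were 35.2, 43.8 and 3.76, so that the primary ratio was the highest. Without high 2 the secondary ratio was 157, without low 2 the primary ratio was 20.7, and without high 1 the tertiary ratio was 23.1.

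The 5 abundant secondary genes kept similar proportions to each other in all 6 libraries, although their total spanned a wide range. Ngp made up between 35.9 and 44.0% of the reads of the 10 genes in each library, Ltf between 19.4 and 27.6%, Chil3 between 11.6 and 21.5%, Lcn2 between 6.01 and 8.82% and Camp between 3.70 and 8.42%. These ranges cover low libraries with 27169 to 62804 granule reads and high libraries with 216 to 1746. After each group mean was taken off, the 10 pairs among these 5 genes had Pearson correlations of log2 levels between 0.962 and 0.996 over the 6 libraries. The 15 pairs of a primary with one of these secondary genes lay between -0.45 and 0.19, and the 3 pairs of primary genes between -0.09 and 0.75. The lowest correlation among the 5 abundant genes was 0.955 without low 1 and 0.858 without high 2. Those of primary with secondary genes lay between -0.25 and 0.56 without low 1 and between -0.93 and 0.11 without high 2. Without high 3 they lay between -0.99 and 0.42. The 3 pairs of primary genes lay between -0.83 and 0.55 without low 1 and between 0.73 and 0.91 without high 1. The size of the correlations that involve primary genes thus rests on single libraries. Among the 5 abundant genes the lowest correlation moved most without high 2. These correlations are given as a description, since all genes of a library share its cells and depth and only 6 points enter.

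**Figure D2:**
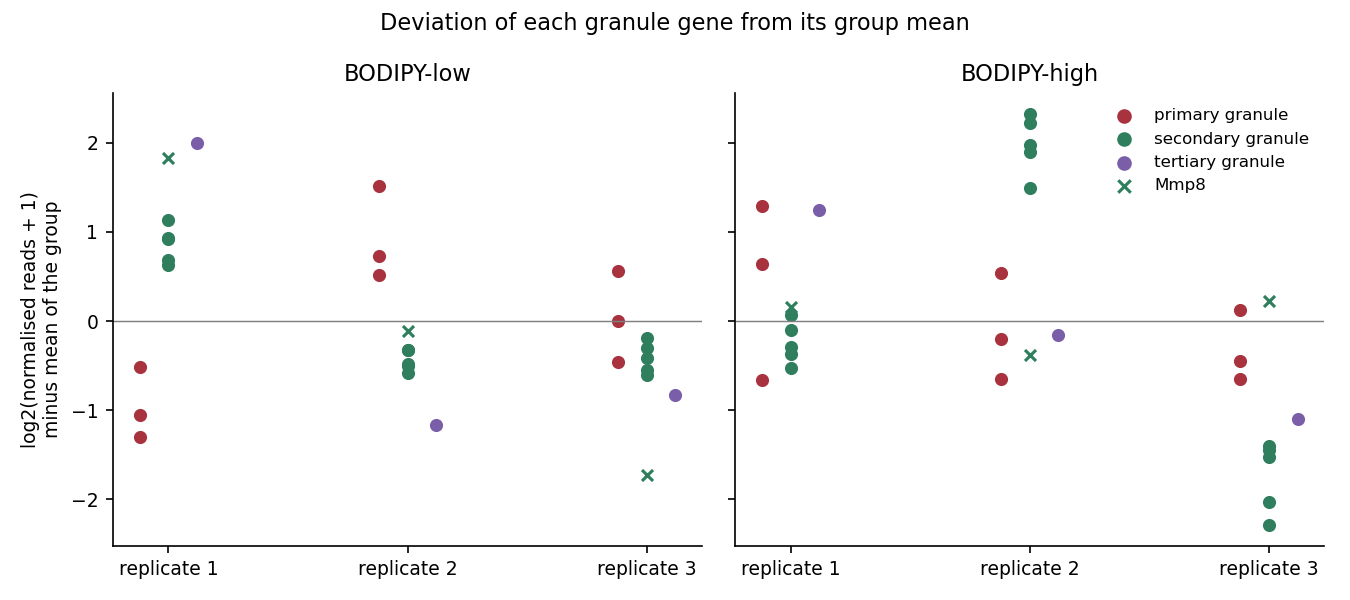
Difference of each granule gene from the mean of its own group, on the log2(normalised reads + 1) scale, for each replicate of BODIPY-low (left) and BODIPY-high (right), with 1 point per gene coloured by granule class and Mmp8 marked by a cross. The 3 primary genes lie below 0 in low 1, where the secondary and tertiary genes lie above 0, and the 5 abundant secondary genes reach between 1.498 and 2.32 in high 2.

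The balance of primary to secondary transcripts differed between libraries of one group. Primary genes made up 0.112% of primary plus secondary granule reads in low 1 (exact 95% interval 0.0876 to 0.142), 1.27% in low 2 (1.14 to 1.41) and 0.621% in low 3 (0.537 to 0.714). No 2 of these 3 intervals overlap. In high 1, high 2 and high 3 the share was 1.90% (0.822 to 3.70), 0.346% (0.127 to 0.752) and 2.90% (1.07 to 6.20), from 8, 6 and 6 primary reads. In each group the library with the most secondary granule reads had the lowest primary share, and the groups overlapped. Secondary reads are in the denominator of that share. With 8, 6 and 6 primary reads, the order of the high libraries was set by their secondary reads. Mmp8 and Mmp9 together made up 1.05% of granule reads in low 1 (0.973 to 1.13), 0.357% in low 2 and 0.330% in low 3, against 10.1% (7.52 to 13.2), 0.859% (0.482 to 1.41) and 6.48% (3.59 to 10.6) in high 1, high 2 and high 3.

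**Figure D3:**
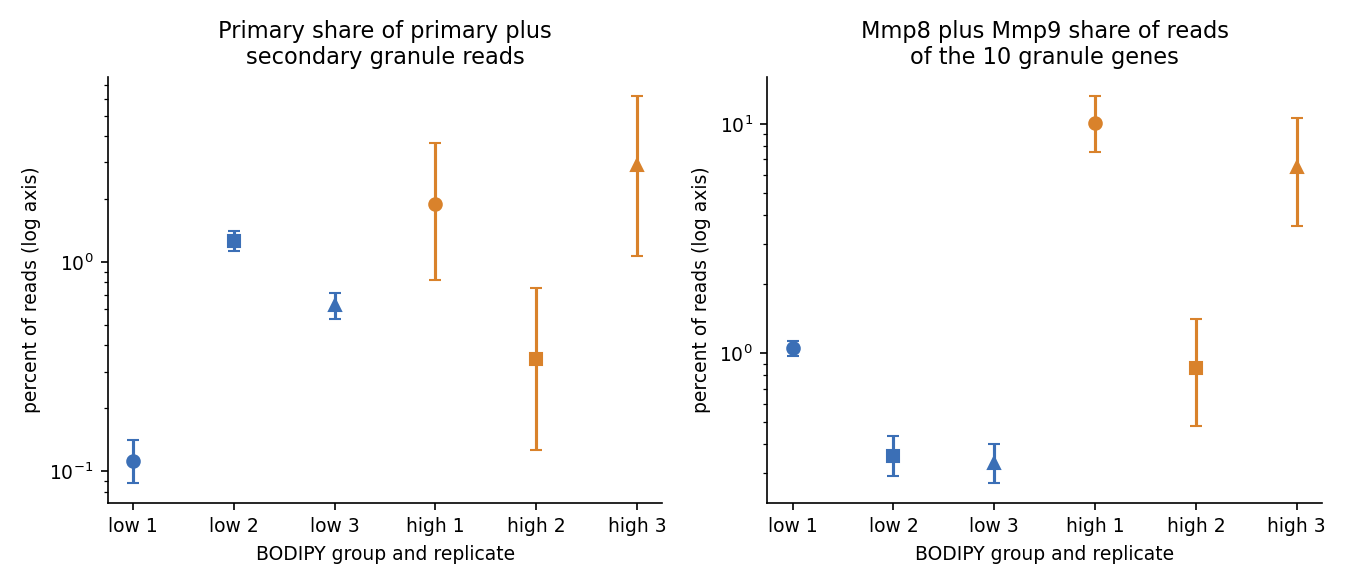
Make-up of granule reads within each library, as percent on a log axis, with exact 95% intervals for counting error: primary share of primary plus secondary granule reads (left) and share of Mmp8 plus Mmp9 among reads of the 10 genes (right). The primary share is lowest in low 1, at 0.112%, and the metalloproteinase share is highest in high 1, at 10.1%.

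Per kilobase of exon, Ngp had the highest mean level in low libraries, at 15228 ± 9192 normalised reads per kilobase (SD, n = 3), and its lowest library exceeded the highest of every other member. Chil3 (4540.3 ± 2026), Camp (3367 ± 2497) and Ltf (3244 ± 1975) followed and overlapped with their neighbours in this order. Lcn2 came next at 1161 ± 474, below every library of those 3 and above every library of the rest. Elane (82.9 ± 48.1), Mmp9 (72.1 ± 87.6), Mpo (29.5 ± 28.7), Mmp8 (26.0 ± 28.6) and Prtn3 (15.1 ± 5.53) each overlapped with the next in order. Elane was thus the most abundant primary enzyme per kilobase, although its range and that of Mpo overlapped.

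Other genes of the neutrophil program were described through 8 lists of textbook genes, covering 65 tested genes. Of these 24 were lower and 8 higher in high libraries and 33 did not pass, with limma and adjustment over all 12821 tested genes, and values are given as mean ± SD of 3 libraries in each group. That is 36.9% called lower, beside 3.52% over all tested genes, of which 9.79% were called higher. These lists too were chosen with earlier results of these data known. Some called genes, such as Gfi1 and Orm1 with 0 reads in high libraries, reached the filter through the low libraries alone. Nothing is read from that share. Of 12 other tested secondary granule genes 7 fell, with a median log2 fold change of -1.90. Cd177, a glycoprotein of the neutrophil surface and secondary granule, fell from 2127 ± 1354 to 40.7 ± 53.5 normalised reads (log2 fold change -6.57, SE 0.88, limma adjusted p = 7.68e-04). Hp, which encodes haptoglobin, fell from 655 ± 387 to 18.8 ± 27.9 (-6.19, SE 0.95, adjusted p = 0.00176). Orm1, an acute-phase orosomucoid, had 111 reads in the low libraries and 0 in high libraries, at least 41.0-fold lower taking 3 reads per group as the floor. Pglyrp1, a peptidoglycan-binding protein, fell from 306 ± 119 to 31.4 ± 19.1 (-3.33, SE 0.42, adjusted p = 5.34e-04). Without low 1, Orm1 did not reach the filter on low values.

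Granule genes that macrophages also express went both ways. Of the subunits of the phagocyte oxidase, Cybb fell from 1983 ± 560 to 496 ± 186 normalised reads (log2 fold change -2.04, SE 0.28, limma adjusted p = 8.23e-04). Its partner Cyba had 10477 ± 3181 and 10542 ± 960.2 (limma log2 fold change 0.05, adjusted p = 0.896). Itgam, which encodes CD11b, was called lower (-0.33, limma adjusted p = 0.0156), a call lost without low 2 or high 3 (adjusted p 0.0660 and 0.0761). Olfm4 had 411 ± 72.4 and 296 ± 69.1 normalised reads in low and high libraries (limma log2 fold change -0.48, adjusted p = 0.170). Of 6 other tested primary granule genes, all of them lysosomal proteins or lysozyme, 1 rose and 0 fell, with a median of 0.13. The one that rose was the lysozyme gene Lyz2 (log2 fold change 0.43, limma adjusted p = 0.0340), whose call was lost without low 2 or 3 or high 1 or 2 (adjusted p 0.0625 to 0.132). Without low 1 a further gene of this list rose, which made 2. The neutrophil serine protease genes Ctsg, for cathepsin G, and Prss57 were too low to test, with 8 and 19 reads in the low libraries and 0 in high libraries. Prss57 was at least 7.02-fold lower against the floor of 3 reads.

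Of 8 other tested tertiary granule genes 2 fell and 1 rose, with a median of -0.16. Fcnb, which encodes a ficolin of neutrophil precursors, fell from 387 ± 142 to 13.9 ± 20.3 normalised reads (log2 fold change -5.68, SE 0.83, limma adjusted p = 0.00125). Mmp25, a membrane metalloproteinase, fell by 3.74 on the log2 scale (limma adjusted p = 0.0280), a call that stood only without high 2 among the single-library omissions (adjusted p 0.0516 to 0.0978 otherwise), and edgeR gave no call (adjusted p 0.0863). Hpse, the heparanase, rose by 0.96 (limma adjusted p = 0.0178) and lost its call without low 1 (adjusted p = 0.0532) or high 3 (0.0724). Of 6 secretory vesicle genes 2 fell and 1 rose, with a median of -0.32. Anxa1, or annexin A1, fell from 1772 ± 1138 to 58.5 ± 77.3 (log2 fold change -5.78, SE 0.87, limma adjusted p = 0.00144) and Cd14 fell by 0.36, a call lost without high 3 (adjusted p = 0.0523). Cd55 rose from 5.92 ± 4.52 to 130 ± 32.6 (limma log2 fold change 4.39, adjusted p = 4.72e-04).

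Among 10 transcription factors of granule genes 3 fell and 0 rose, with a median of -0.30. Cebpe, the C/EBP factor known to be required for secondary granule proteins, had 80.0, 38.4 and 28.8 normalised reads in low 1, low 2 and low 3 and 0.942, 2.27 and 0 in high 1, high 2 and high 3. The groups did not overlap (log2 fold change -4.62, SE 0.81, limma adjusted p = 0.00364), and pooled reads of 137 against 3 gave a ratio of 50.6 (exact interval 16.95 to 248). Gfi1, a repressor that acts in granulocyte precursors, had 59 reads in the low libraries and 0 in high libraries, at least 21.8-fold lower against the floor. It did not reach the filter without low 1 or 2. The general myeloid factors Spi1 and Cebpa did not pass the test. Spi1, which encodes PU.1, had 8579 ± 444 and 9531 ± 944 (limma log2 fold change 0.15, adjusted p = 0.337), and Cebpa 3220 ± 283 and 3026 ± 515 (-0.10, adjusted p = 0.667). Ets1 fell by 0.41 (limma adjusted p = 0.0122), a call lost without low 2 or 3 or high 3 (adjusted p 0.0544 to 0.0650). Without low 2, 1 factor of this list was called lower, and DESeq2 and the fit with the replicate block called 5.

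Inhibitors of granule proteases split in direction. Of 7 tested 1 fell and 4 rose, with a median of 0.38. Serpinb1a, a cytosolic inhibitor of elastase, cathepsin G and proteinase 3 in neutrophils, fell from 486 ± 210 to 8.58 ± 10.3 normalised reads (log2 fold change -6.17, SE 0.67, limma adjusted p = 2.08e-04). Slpi, the elastase inhibitor that protects progranulin, had 57 reads in the low libraries and 3 in high libraries (ratio 21.1, exact interval 6.85 to 105) and missed the threshold (limma adjusted p = 0.0512). Slpi was called lower with no filter (adjusted p = 0.0208), by edgeR (0.0256), by DESeq2 (0.0140) and by limma without high 2 (0.0480), and it was below the filter without low 1 or low 3. A2m, or alpha-2-macroglobulin, rose from 9.18 ± 3.97 to 531 ± 225 (limma log2 fold change 5.67, adjusted p = 3.98e-05). Timp3, a metalloproteinase inhibitor, rose from 81.5 ± 36.6 to 1120.5 ± 413 (3.79, limma adjusted p = 7.80e-05). Serpinb6a and Timp2 rose by 0.78 and 0.33 on the log2 scale (limma adjusted p = 0.00714 and 0.0222). The calls of A2m, Timp3 and Serpinb6a stood in every single-library omission. Without low 2 or 3 or high 1 or 2 the list had 3 genes called higher, so Timp2 lost its call there. All 8 choroid plexus markers also rose in these libraries, by a median of 4.60, and their part in the rises of A2m and Timp3 was not tested.

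Of 8 tested receptors and substrates of granule proteins 1 rose and 3 fell, with a median of -0.16. Slc22a17, the receptor for lipocalin-2, rose from 1259 ± 154 to 6861 ± 968 normalised reads (log2 fold change 2.44, SE 0.13, limma adjusted p = 1.22e-05). The part of the choroid plexus markers in that rise was not tested either. Itgam, P2rx7 and Tfrc fell by 0.33, 0.30 and 0.52 on the log2 scale. The list had 0 genes called lower without low 2 or high 3 (limma adjusted p of the 3 genes 0.0635 to 0.155), and 1 without low 1 or 3 or high 2. Lrp1, a receptor for lactoferrin among many ligands, had 19046 ± 2250 and 18648 ± 1468 (limma log2 fold change -0.03, adjusted p = 0.898).

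Surface and cytosolic neutrophil genes were set beside the granule reads. S100a8 and S100a9, the calprotectin subunits, had log2 fold changes of -5.58 and -5.85 (limma adjusted p = 7.38e-04 and 5.59e-04). Of 12 tested mature neutrophil genes 8 fell and 0 rose, with a median of -4.20, and 5 fell without low 1. The others with the greatest change were Itgb2l, an integrin subunit (-7.05, SE 0.59, limma adjusted p = 5.14e-05), and Trem3, a receptor of myeloid cells with 291 reads in low and 1 in high libraries (-6.22, SE 0.73, limma adjusted p = 3.15e-04). Csf3r, the receptor for the granulocyte growth factor G-CSF, had 20635 ± 2831 and 19141 ± 3473 and was not called (limma log2 fold change -0.11, adjusted p = 0.645). For each read of S100a8 plus S100a9 there were 3.71, 4.65 and 3.80 secondary granule reads in low 1, low 2 and low 3 and 2.78, 2.57 and 3.0 in high 1, high 2 and high 3. For each 1000 of these reads there were 4.17, 59.6 and 23.7 primary granule reads in the former and 53.7, 8.94 and 89.6 in the latter. Within each group the ratio for primary reads varied far more than that for secondary reads. In high 1, high 2 and high 3 it rests on 8, 6 and 6 primary reads against 149, 671 and 67 reads of S100a8 plus S100a9. The order of the high libraries was thus set by the S100a8 and S100a9 reads. Of 8 tested precursor genes 4 fell and 1 rose, with a median of -2.79. Of the 4, Fcnb, Cebpe and Gfi1 were already counted as falls in the lists above. Ms4a3, a gene of granulocyte and monocyte precursors, fell from 46.9 ± 15.1 to 1.89 ± 3.27 (log2 fold change -4.63, SE 0.90, limma adjusted p = 0.00678), and Tuba8, too low to test, had 56 reads in the low libraries and 0 in high libraries. Ly6g had no row under that symbol in the deposited values, so it could not be checked.

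**Figure D4:**
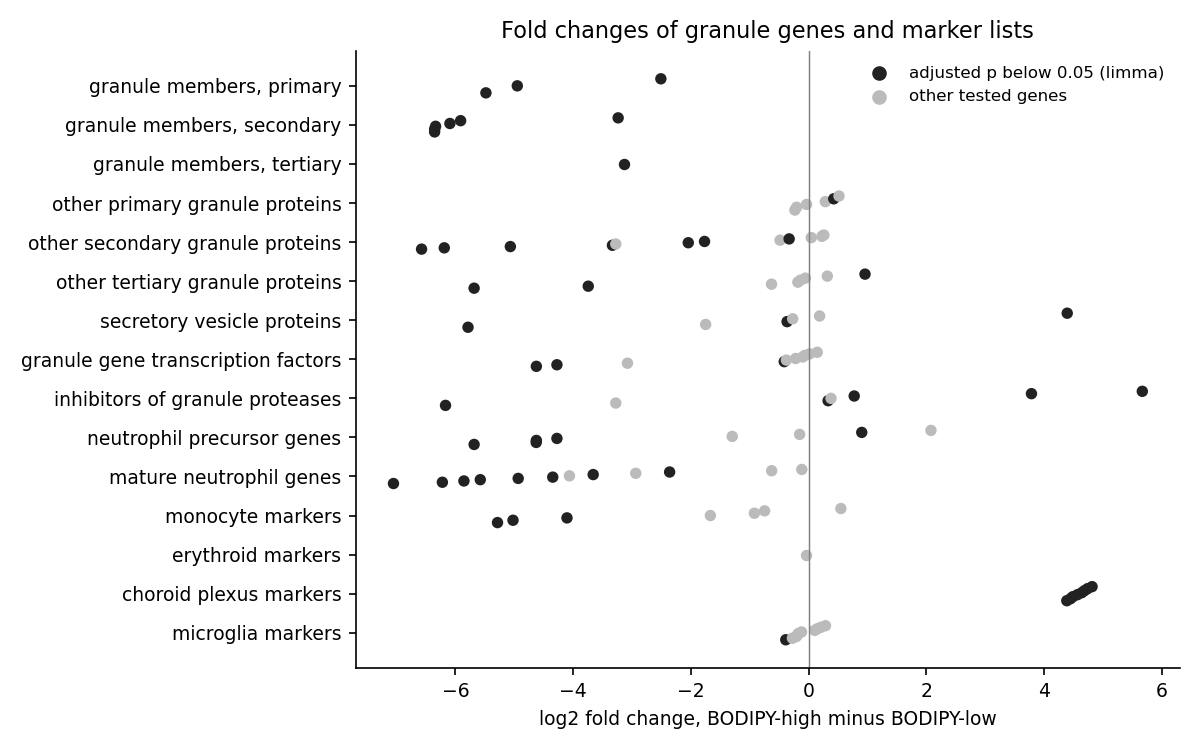
Log2 fold change of each tested gene of the granule classes and of the marker lists, BODIPY-high minus BODIPY-low, with genes called by limma in black and others in grey. The 10 granule genes lie between -6.35 and -2.51, the choroid plexus markers between 4.39 and 4.82, and the microglia markers between -0.39 and 0.29.

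Markers of other blood cells were set beside these values. Of 7 tested monocyte markers 3 fell (among them Ifitm6 and Ly6c2, with log2 fold changes of -5.28 and -5.02) and 4 did not pass, with a median of -1.67. The summed level of the 9 monocyte markers was 1152 to 1386 normalised reads in the low libraries and 569 to 945 in high libraries. Among them Ccr2 had 172 ± 61.0 and 96.4 ± 58.5 (SD, n = 3 each), and Vcan had 0 reads in low libraries. Neutrophils and monocytes carry more CD45 than microglia, and the sort gate took cells low for it. Ptprc, which encodes CD45, had 8673 ± 338 and 6511 ± 1194 normalised reads (limma log2 fold change -0.43, adjusted p = 0.0392), a call that stood only without high 1 (adjusted p 0.0764 to 0.132 without any other library). Of the 11 granule genes of eosinophils, basophils and mast cells, Prg2 alone was in the table, with 4 reads. The part of monocytes or of the gate in the granule values was not tested.

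The genes most like the 10 in pattern were ranked by the Pearson correlation of log2(value + 1) with the mean of their standardised levels over the 6 libraries, among 12022 genes. They were Ankrd24, Cebpe, Gpr34, Cldn15, Socs3, Wls, Itgb2l and Pigu, with correlations between 0.992 and 0.998. Of these, Cebpe, Cldn15 and Itgb2l were near 0 in high libraries, with means of 1.07, 1.45 and 2.09 normalised reads against 49.1, 54.5 and 393 in the low libraries. The other 5 were expressed in both groups, such as Gpr34, a microglial lipid receptor, with means of 98376 and 74222. After each group mean was taken off, the leading genes were Irs3, Stxbp3-ps, Dcaf5, Hist1h2ae, Ccl24, Liph and Fam78a (0.992 to 0.997), none of which was shared with the first ranking. The order over 6 points is a description.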

How the data were processed

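RNA-seq values of 6 libraries of sorted microglia were used. STAR 2.5.3a with its gene counting, FastQC 0.11.4 and DESeq2 were used on mm10 (mm9 is also listed), per the submitters' processing notes and the text on the design. Annotation and counting strand: not given in the sources used here. The deposited signal is a read count divided by 1 factor per library by the authors, as the values show. Whole reads were recovered by dividing by the smallest nonzero value of the library (100% whole at a tolerance of 0.01 read, for 16179 genes), and edgeR on them called 427 genes lower and 1215 higher.

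Groups were compared by the two-sided test of limma 3.58.1 in R 4.3.3 (trended variance, no block) on log2(value + 1), for 12821 genes with a mean of at least 10, and a call needed an adjusted p (Benjamini-Hochberg) under 0.05. edgeR 4.0.16 and DESeq2 1.42.0 were alternatives, and all were checked on simulated data. Fold changes understate the change of low genes. GENCODE M21 (GRCm38) gave coordinates and exon lengths, and RefSeq the promoter windows. Protein sequences were not used here.

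The members, the lists and the tests were chosen with earlier results of these data known. Named are all 10 members, Grn, up to 4 called genes per list by size of change with the genes at 0 reads, and the 8 genes most like the members. Other genes in the text, such as Olfm4, Cyba, Cybb, Itgam, Slpi, Spi1, Cebpa, Lrp1, Csf3r, Ccr2, Vcan, Prg2 and Alas2, were named after their values were seen. A few genes that this rule would name are not reported here.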

Additional observations from a re-analysis of the deposited data

How the results depend on the processing

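The 10 granule genes kept their direction under all 13 alternatives (pseudocounts of 0.5 and 5, no filter, edgeR, DESeq2, equal totals, the replicate block, and each of the 6 libraries left out), and all 10 were called lower in each of the first 7. With 1 library left out between 7 and 9 were called. With a pseudocount of 5 the log2 fold changes of Mpo, Elane and Prtn3 were -3.62, -3.69 and -1.79, and DESeq2 gave -6.01 for Mpo. Over all tested genes, calls lower numbered 451, from 151 to 527 with 1 library left out, and calls higher 1255, from 662 to 1309 (151 lower without low 3 and 662 higher without high 3). In the 8 other lists the calls lower ranged from 18 to 31 and the calls higher from 6 to 12. The mean share of granule reads was 0.0878% in the low libraries and 0.00189% in high libraries without Ngp. Per kilobase, the primary share in low 2 was 1.11%, and the other 5 libraries stayed within their counting intervals. The log2 fold change of Grn was -0.20 without high 3 and reached 0.69 without high 1. Class ratios and correlations without single libraries were added after seeing the data. Causes of these shifts were not tested.

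The replicate numbers were not shown to pair the libraries: deviations from group means correlated by 0.11, 0.14 and 0.07 across genes for numbers 1, 2 and 3, although each library correlated best with its own number. With the replicate block, calls lower numbered 760 and calls higher 1451, all 10 granule genes were called, and calls in the 8 lists were 30 lower and 12 higher. Depth limits the primary genes and Mmp8 in high libraries, where 3 to 12 reads were counted per gene.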

Other observations

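Granule genes lie close to each other on the genome in part. Camp, Ngp and Ltf stand within 1195 kb of chromosome 9 (109847379 to 111042767), where 16 other tested genes had a median log2 fold change of -0.12, with 2 called lower (Map4 and Setd2) and 1 higher. Prtn3 and Elane are 3.07 kb apart on chromosome 10. The nearest other tested genes, Med16 beside Elane and Ptbp1 beside Prtn3, had log2 fold changes of 0.37 and 0.10 and were not called. Called neighbours were 3000002C10Rik beside Camp (-1.51), 1110008P14Rik beside Lcn2 (1.32) and Pifo beside Chil3 (3.38). Klhl18 beside Ngp, Ccrl2 beside Ltf and Nme6 beside Camp had -0.19, -0.31 and 0.32 and were not called.

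Alas2, the erythroid enzyme of heme synthesis, had 94.9, 34.1 and 9.28 normalised reads in the low libraries and 0.942, 281 and 57.2 in high 1, high 2 and high 3. It was highest in the same library of each group as the secondary granule genes, and the groups overlapped. Of the 6 erythroid markers 2 were in the table, with summed levels of 9.28 to 101 and 0.942 to 288, and 0 of 1 tested was called. The choroid plexus markers were also highest within the BODIPY-low group in low 1, with a summed level of 18552 normalised reads against 3735 in the lowest low library. In the BODIPY-high group the order was the other way: high 2, highest for the secondary granule genes, had the lowest sum (150651 against 252035 and 263676), and all 8 markers were lowest there.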
